A study of Mus musculus with 12 samples.

Results

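The genes described here are 9 forebrain and anterior neural plate factors: Hesx1, Six3, Rax, Otx1, Otx2, Lhx2, Lhx5, Emx2 and Wnt8b. They were taken by name, with every probe set that the platform annotation gives to 1 of these genes alone. That gave 13 of 45101 probe sets and 9 of 18193 genes. Six3 and Wnt8b had 3 probe sets each, and the other 7 genes had 1 each. Messenger RNA was measured on Affymetrix mouse arrays in neural tubes micro-dissected from embryos of ICR (CD-1) mice, an outbred stock, at gestation days 8.5, 9.0 and 9.5 (GD8.5, GD9.0 and GD9.5), with the morning of the vaginal plug as day 0. The labels name no allele and no agent. Each stage had 4 arrays labelled as biological replicates, and the labels do not say whether a replicate is 1 embryo, 1 litter or a pool, so the p-values measure the spread between these samples. The deposited values of GD8.5 replicates 1 and 2 are linear intensities, while the other 10 arrays are on a log2 scale, so the comparisons rest on 2 arrays at GD8.5 and 4 at each later stage. The stated aim of the study includes finding mRNAs that change over these stages.

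The anterior neural plate gives rise to the telencephalon, the eyes, the diencephalon and the midbrain. Homeobox factors divide it before and during closure of the neural tube, and secreted Wnt proteins act in that division: low Wnt activity favours anterior fates, and later a Wnt source at the medial edge of the cortex, the cortical hem, patterns the hippocampus. Hesx1 is an early repressor of the anterior neural plate and later of the pituitary primordium, and Six3 and Rax mark the rostral plate and the eye field. Otx2 and Otx1 specify forebrain and midbrain, Lhx2 and Lhx5 are LIM-homeobox factors of the forebrain, Emx2 patterns the caudal and medial cortex, and Wnt8b encodes a ligand of the medial cortical wall.

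RefSeq windows of 250 bases before a transcription start (GRCm38.p6) were matched by symbol for 6 of the 9 genes, 10 windows in all, and Rax, Otx1 and Lhx5 had no entry. Of the 4 Otx2 windows 2 overlap each other. The windows of the genes with the largest moves, and of Otx2, which turned at GD9.0, are shown because their base composition and homeodomain core motifs differ. Capitals mark TAATTA, a core bound by many homeodomain proteins, which reads the same on both strands.
Hesx1, chr14:27000112-27000361, plus strand: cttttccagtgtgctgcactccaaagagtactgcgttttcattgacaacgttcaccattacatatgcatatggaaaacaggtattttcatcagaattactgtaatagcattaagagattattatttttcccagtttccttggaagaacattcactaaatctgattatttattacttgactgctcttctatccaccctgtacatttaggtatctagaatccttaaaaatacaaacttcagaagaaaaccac
Wnt8b, chr19:44493222-44493471, plus strand: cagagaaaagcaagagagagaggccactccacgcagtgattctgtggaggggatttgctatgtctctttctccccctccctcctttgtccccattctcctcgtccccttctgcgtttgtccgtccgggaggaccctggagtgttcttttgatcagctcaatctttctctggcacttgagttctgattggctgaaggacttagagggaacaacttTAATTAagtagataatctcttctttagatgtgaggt
Emx2, chr19:59458440-59458689, plus strand: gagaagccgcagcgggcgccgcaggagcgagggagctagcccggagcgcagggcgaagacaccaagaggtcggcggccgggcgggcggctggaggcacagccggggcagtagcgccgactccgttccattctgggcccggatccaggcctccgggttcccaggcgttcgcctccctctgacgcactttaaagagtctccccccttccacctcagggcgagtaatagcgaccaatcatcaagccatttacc
Otx2, chr14:48667645-48667894, minus strand: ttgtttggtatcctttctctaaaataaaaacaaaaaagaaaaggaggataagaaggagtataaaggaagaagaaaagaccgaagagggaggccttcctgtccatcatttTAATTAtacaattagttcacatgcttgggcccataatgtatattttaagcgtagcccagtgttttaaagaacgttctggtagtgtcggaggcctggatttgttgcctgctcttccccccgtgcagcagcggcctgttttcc
The Hesx1 window had 34.0% G or C bases and 2 CpG dinucleotides, less G and C than all but 3.9% of 32851 windows in the table. The Emx2 window had 67.2% and 24 CpG, against a median of 52.4% and 6 CpG over all windows. The windows shown for Wnt8b and Otx2 lay between, at 48.4% and 42.0%. The other Otx2 windows had 53.6%, 48.4% and 49.2%. Of the genes not shown, Six3 had 48.8% and the Lhx2 windows had 72.8% and 68.4%. TAATTA was found in the Wnt8b window and in 2 of the 4 Otx2 windows, and in 4.84% of all windows. TAATCC, the core preferred by Otx proteins, was searched on both strands. It was found in 1 of the 10 windows, that of a more downstream Otx2 start, which also held 3 copies of TAATTA, and in 6.25% of all windows. A match is a description of these letters and not a bound site.

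In the tissue as a whole, Hesx1 fell steeply while Wnt8b, Emx2, Lhx2 and Otx1 rose. From GD8.5 to GD9.0, 5 of the 9 genes rose, 2 fell and 2 did not pass the test. Over all genes 6.78% were higher and 6.74% lower in that interval by limma at a Benjamini-Hochberg adjusted p under 0.05. From GD9.0 to GD9.5, 4 rose, 4 fell and 1 did not pass, where 14.1% of all genes were higher and 10.3% lower. Over the full day 5 were higher, 3 lower and 1 did not pass, where 15.5% of all genes were higher and 13.1% lower (28.6% in all). Of all genes, 13.5% were called in the first interval and 24.3% in the second. The 4 genes Otx1, Lhx2, Emx2 and Wnt8b rose in both intervals, as did 3.12% of all genes, and Hesx1 and Six3 fell in both, as did 1.69%. The second interval differed from the first for 4 of the 9 genes, 1 upward and 3 downward, against 6.97% and 4.67% of all genes (11.6% in all). Arrays of the stages compared did not overlap for the same numbers of the 9 genes as were called: 5 higher and 2 lower in the first interval, 4 and 4 in the second, and 5 and 3 over the day. Over all genes the shares without overlap were 17.6% higher and 16.9% lower in the first interval (34.5% in all), 15.1% and 11.9% in the second (27% in all), and 23.2% and 22.7% over the day (45.9% in all). The median log2 change of the 9 genes was 0.52, 0.35 and 0.27 in the 3 comparisons, while that of all genes was -0.0019, -0.0077 and -0.016. The comparisons share arrays, so these counts are not independent of each other.

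**Figure D1:**
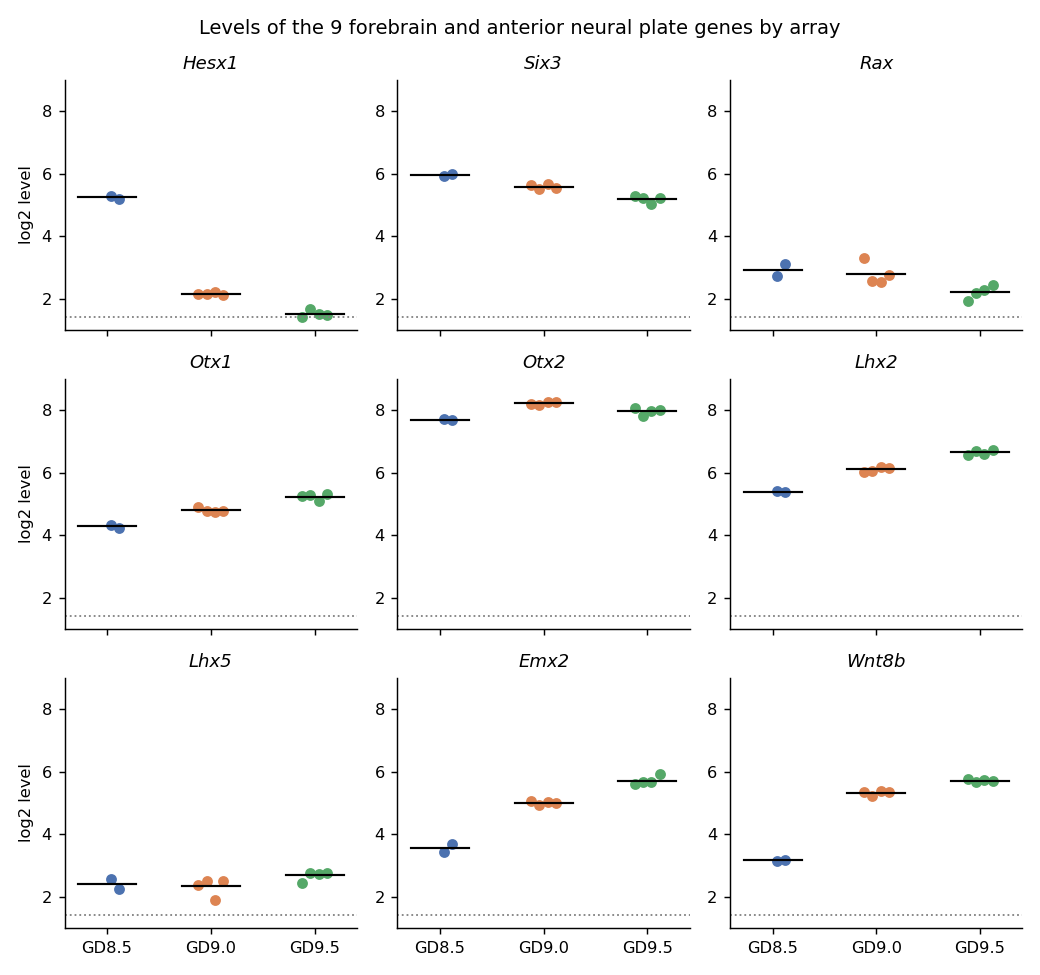
Log2 level of each gene on every log2-scale array (points; 2 arrays for the earliest stage and 4 for each later one), with the stage mean as a bar and the background of 1.42 as a dotted line. Hesx1 drops from near 5.24 to 2.15 and then to the background, while Wnt8b and Emx2 climb from 3.16 and 3.56 to 5.71.

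Hesx1 had the largest change of the group. Its log2 level was 5.28 and 5.20 on the GD8.5 arrays, 2.14, 2.15, 2.2 and 2.11 at GD9.0, and 1.41, 1.66, 1.5 and 1.47 at GD9.5. The 3 stages do not overlap, and the GD9.5 arrays lie around the background of 1.42, the 95th percentile of 39 olfactory receptor genes, which serve here as unexpressed genes. By GD9.0, Hesx1 mRNA had fallen 8.50-fold (log2 change -3.09 ± 0.07 SE, n = 4 against 2, limma adjusted p = 8.5e-10). It fell again by GD9.5 (-0.64 ± 0.06, limma adjusted p = 2.0e-05), and the measured difference over the day was -3.73 ± 0.07. Because the GD9.5 arrays lie at the background, these last 2 values are lower bounds on the size of the fall. Hesx1 ranked 27 of 18193 genes from the largest fall in the first interval. The linear arrays of GD8.5 gave Hesx1 intensities of 677 and 694, and with these arrays in place of the others the first fall was -2.92.

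Six3, the other factor of the most rostral plate that passed in both intervals, fell in smaller steps. Its brightest probe set read 5.91 and 6.0 at GD8.5, 5.63, 5.49, 5.66 and 5.53 at GD9.0, and 5.27, 5.22, 5.02 and 5.21 at GD9.5. No array of a later stage reached the lowest of the stage before. The change was -0.38 ± 0.08 SE in the first interval (limma adjusted p = 0.011) and -0.40 ± 0.07 in the second (limma adjusted p = 0.0012), a fall of 1.71-fold over the day (-0.78 ± 0.08). With the mean of the 3 probe sets the second step was -0.22 and the change over the day -0.40, and both still passed (limma adjusted p = 0.020 and 0.0017). The first of these calls was lost without GD8.5 replicate 4 (-0.33, limma adjusted p = 0.12), with the mean of the probe sets (-0.17, limma adjusted p = 0.17) and with the linear arrays at GD8.5 (-0.19, limma adjusted p = 0.13). The other 2 Six3 probe sets had stage means from 1.12 to 1.44, at or near the background, and did not pass in any comparison. The Six3 result thus rests on 1 of 3 probe sets.

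Rax, the retinal homeobox factor of the eye field, was dim and variable. It read 2.71 and 3.11 at GD8.5, 3.29, 2.57, 2.54 and 2.76 at GD9.0, and 1.92, 2.18, 2.29 and 2.44 at GD9.5. GD8.5 and GD9.0 overlap, with a change of -0.12 ± 0.21 SE and a 95% interval from -0.57 to 0.34. All 4 GD9.5 arrays lie below the lowest GD9.0 array, and the fall of the second interval passed (-0.58 ± 0.17, limma adjusted p = 0.027). This call was lost without GD9.0 replicate 4, without GD9.5 replicate 1 or 2, with 12 arrays, with the linear arrays at GD8.5 and with the background as a floor (-0.49 to -0.60, limma adjusted p from 0.051 to 0.075 in these 6 fits). The fall over the day, -0.70 ± 0.21 (limma adjusted p = 0.026), was lost without GD8.5 replicate 4 (-0.50), without GD9.5 replicate 1 (-0.60) or 2 (-0.69), with the linear arrays (-0.37), with the floor (-0.70) and with the replicate block (-0.69, limma adjusted p = 0.067). In the first interval the sign of the Rax change turned without GD8.5 replicate 4 (0.08), with 12 arrays (0.04) and with the linear arrays (0.21).

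**Figure D2:**
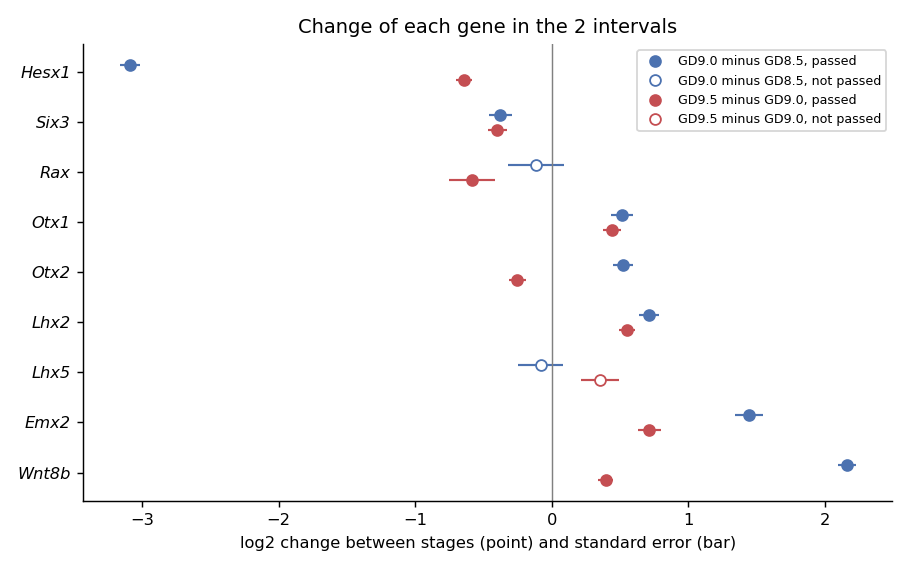
Log2 change (horizontal axis, point) with its standard error (bar) for each gene in the interval from GD8.5 to GD9.0 (blue) and from GD9.0 to GD9.5 (red); filled points passed at an adjusted p under 0.05. Hesx1, Wnt8b and Emx2 moved more in the first interval, and Otx2 changed direction.

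Otx2, the head determinant expressed from the forebrain to the caudal limit of the midbrain, peaked at GD9.0. Its levels were 7.70 and 7.69 at GD8.5, 8.20, 8.16, 8.26 and 8.25 at GD9.0, and 8.07, 7.81, 7.98 and 8.0 at GD9.5. Every GD9.0 array was above every array of the other stages. Otx2 rose by 0.52 ± 0.07 (SE) in the first interval (limma adjusted p = 0.00063), and its level fell by 0.25 on the log2 scale in the second (-0.25 ± 0.06, limma adjusted p = 0.0097). The second change differed from the first by -0.78 ± 0.11 (limma adjusted p = 0.0013). That is a test of unequal steps, so the turn in direction rests on the 2 separate calls. Calls in opposite directions were made for 2.26% of all genes. At GD9.5 it was still 1.21-fold above GD8.5 (0.27 ± 0.07, limma adjusted p = 0.018), a call that was lost without GD8.5 replicate 3 or 4 (0.27 in both fits, limma adjusted p = 0.087 and 0.099) and with the linear arrays (0.17, limma adjusted p = 0.10).

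Otx1, its paralogue of the dorsal telencephalon and midbrain, did not turn. Its arrays read 4.34 and 4.21, then 4.89, 4.76, 4.75 and 4.76, then 5.24, 5.28, 5.09 and 5.32, and no neighbouring stages overlap. Otx1 rose by 0.52 ± 0.08 (SE) in the first interval (limma adjusted p = 0.0011) and by 0.44 ± 0.06 in the second (limma adjusted p = 0.00048), to 1.94-fold over the day. The 2 intervals did not differ by the test, with a difference of -0.08 and a 95% interval from -0.34 to 0.19. With the linear arrays at GD8.5, after log2 and quantile normalization, the first rise of Otx1 was 1.41 and the intervals then differed (-1.04, limma adjusted p = 0.0010). The rise over the day was 1.79 with these arrays, against 0.96 ± 0.08 (SE). With all 12 arrays the rise of the second interval was 0.38 and no longer passed (limma adjusted p = 0.33).

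Lhx2, a LIM-homeobox selector of cortex and eye, rose evenly. It read 5.40 and 5.38 at GD8.5, 6.02, 6.05, 6.18 and 6.16 at GD9.0, and 6.58, 6.70, 6.60 and 6.74 at GD9.5. The steps were 0.71 ± 0.07 (SE) and 0.55 ± 0.06, each past the test (limma adjusted p = 5.7e-05 and 5.3e-05), and the rise over the day was 2.40-fold. The difference between the steps was -0.16, with a 95% interval from -0.41 to 0.08. With the linear arrays at GD8.5 the first step was 0.45.

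Lhx5, which acts in the forebrain and marks early hem and hypothalamic territories, was the 1 gene of the 9 that did not pass in any comparison. Its arrays ranged from 2.25 to 2.57 at GD8.5, from 1.91 to 2.51 at GD9.0 and from 2.45 to 2.76 at GD9.5, so all stages overlap. Its change in the first interval was -0.08 ± 0.17 (SE), and it was 0.08 without GD8.5 replicate 3 and 0.06 without GD9.0 replicate 3. The change of the second interval was 0.35 ± 0.14 SE (limma adjusted p = 0.088), with a 95% interval from 0.05 to 0.65, and it passed with an intensity trend and robust spread (limma adjusted p = 0.038). Without GD9.0 replicate 3 it was 0.21 (limma adjusted p = 0.17). The change over the day, 0.27 ± 0.17, was 0.43 without GD8.5 replicate 3, 0.11 without GD8.5 replicate 4 and 0.03 with the linear arrays. The 95% interval of the change over the day ran from -0.10 to 0.64.

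Emx2, the homeobox factor of the dorsomedial cortex, rose most among the 8 transcription factors described here. It read 3.42 and 3.70 at GD8.5, 5.06, 4.92, 5.04 and 4.98 at GD9.0, and 5.60, 5.67, 5.65 and 5.94 at GD9.5, with no overlap between neighbouring stages. The first step was 2.72-fold (1.44 ± 0.10 SE, limma adjusted p = 3.4e-06) and the second 1.64-fold (0.71 ± 0.09, limma adjusted p = 0.00012), which gave 4.46-fold over the day. The second step was smaller by 0.73 on the log2 scale (-0.73 ± 0.16, limma adjusted p = 0.013), and this difference missed the threshold without GD8.5 replicate 3 (-0.59, limma adjusted p = 0.060). The first step was 1.39 with the linear arrays.

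Wnt8b, the signalling ligand of the group, had the largest rise. Its brightest probe set read 3.14 and 3.18 at GD8.5, 5.34, 5.21, 5.39 and 5.34 at GD9.0, and 5.77, 5.66, 5.74 and 5.68 at GD9.5. The stages do not overlap, and most of the rise lies in the first interval. By GD9.0, Wnt8b had risen 4.46-fold (2.16 ± 0.07 SE, limma adjusted p = 3.0e-09), rank 7 among the rises of 18193 genes. The second step was 1.31-fold (0.39 ± 0.05, limma adjusted p = 0.00032), smaller than the first by 1.76 on the log2 scale (-1.76 ± 0.10, limma adjusted p = 2.0e-06), and the day's rise was 5.86-fold. With the mean of its 3 probe sets the first step was 0.95, the change over the day 1.22 and the difference between the intervals -0.68, all of which passed (limma adjusted p = 7.0e-06, 3.1e-07 and 0.0034). The first step was 1.55 with the linear arrays, and the second did not pass with 12 arrays (0.35, limma adjusted p = 0.10).

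All 3 Wnt8b probe sets rose over the day. In a fit of all 34945 single-gene probe sets, where 23.2% were called in either direction over the day, the dimmer probe sets rose by 0.60 ± 0.12 SE and 0.51 ± 0.10 (limma adjusted p = 0.0026 and 0.0041). At GD8.5 these 2 had means of 1.72 and 1.18, near and under the background of 1.42, so the sizes of their changes cannot be set against that of the brightest. Of the dimmer sets, 1 passed in the first interval (0.45 ± 0.10, limma adjusted p = 0.018), and the other in the second (0.36 ± 0.09, limma adjusted p = 0.018). Over all 13 probe sets, 6 were higher and 2 lower in the first interval, 5 and 4 in the second, and 7 and 3 over the day, where 10.1%, 20.4% and 23.2% of all single-gene probe sets were called.

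**Figure D3:**
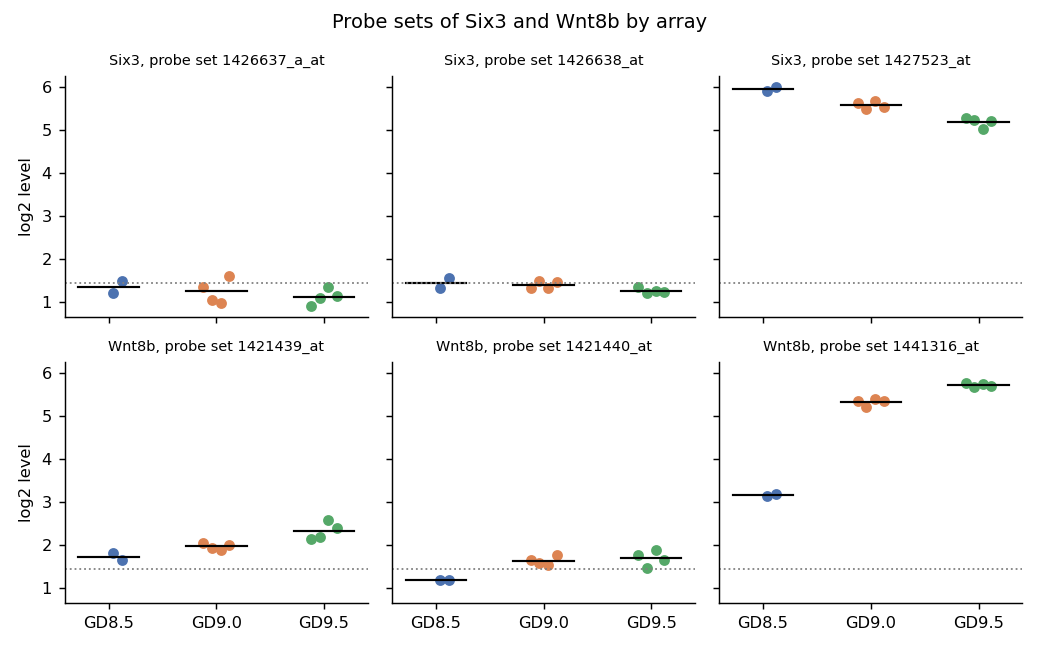
Log2 level on every log2-scale array (points) and stage mean (bar) for the 3 probe sets of Six3 (top) and of Wnt8b (bottom), with the background of 1.42 dotted. One probe set of each gene is well above the background, and the other Six3 sets stay at it.

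The genes whose levels were most like those of each member over the 10 log2 arrays were found by Pearson correlation among 13776 other genes with a stage mean above the background. The arrays fall into 3 stages, so these values mostly compare stage patterns and carry no test. Hesx1 was closest to Myh6, an atrial myosin heavy chain, and Slc2a2, a glucose transporter of liver and yolk sac (r = 0.998 each). Wnt8b was closest to Col3a1, a fibrillar collagen, and Flrt2, an adhesion protein (r = 0.997 and 0.995). Lhx2 was closest to Cox20 and Sfrp2, the latter a secreted Wnt modulator (r = 0.995 each). Emx2 was closest to Ythdc2 and Srgap3 (r = 0.993 and 0.992). Otx1 was closest to Zbtb18, a transcriptional repressor, and Inpp5f (r = 0.991 and 0.990), and Otx2 to Ahsa2 and Slc15a2 (r = 0.982 and 0.980). Six3 was closest to Nabp1 and Spint1 (r = 0.977 and 0.976). Rax was closest to Rnf149 and Strap (r = 0.934 and 0.933), and Lhx5 to Gm3716 and Apmap (r = 0.926 and 0.923). Rax and Lhx5 had no gene with r of 0.95 or more, while Lhx2 had 390 and Otx2 had 11.

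Other factors of the telencephalon and eye field moved in both directions as well. Of 20 measured, 9 rose and 2 fell in the first interval, with a median change of 0.30, and 7 rose and 1 fell in the second. Over all genes 6.78% rose and 6.74% fell in the first interval and 14.1% rose and 10.3% fell in the second, so the counts of falls lie near those shares. Dmrta2, a cortical hem and cortex factor, rose by 1.68 ± 0.07 (SE) in the first interval, and Nr2e1, an orphan receptor of forebrain progenitors, by 1.39 ± 0.12. Foxd1, of the ventral forebrain and temporal retina (-0.36 ± 0.09), and Sp8, of the anterior telencephalon (-0.22 ± 0.06), fell in that interval. Neither of these 2 falls was called without GD8.5 replicate 3 or 4 or without GD9.0 replicate 1 or 2, and 1 of them was called without GD9.0 replicate 4. Fezf2, a factor of rostral forebrain, rose in the second (1.45 ± 0.08), as did Lhx9 (0.83 ± 0.09). Six6, an eye field relative of Six3, rose by 0.84 ± 0.10 in the first interval and changed by -0.84 ± 0.08 in the second, so it peaked at GD9.0 as Otx2 did. In the diencephalon and midbrain list, 3 of 21 rose and 3 fell in the first interval, and 6 rose and 2 fell in the second, of which 1 fall was called without any one of 6 of the later arrays. The share of falls in the second interval is near the 10.3% of all genes. The rises were led by Dbx1, an interneuron progenitor factor (1.44 ± 0.10 and 1.75 ± 0.08), and in the second interval also by Pou4f1 (1.27 ± 0.09). The falls were led by Gbx2 and Gata3 (-1.04 ± 0.27) in the first interval and by Six6 and Tal2 (-0.18 ± 0.06) in the second. Six6 and Lhx9 are in both of these lists. Lists described below also share genes, such as Gbx2, Dkk1 and Sox17, so the counts of different lists are not independent.

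Among signals of the anterior plate and hem, 6 of 24 rose and 4 fell in the first interval, where 6.78% and 6.74% of all genes did, and 11 rose and 3 fell in the second, where 14.1% and 10.3% did. The share of falls in the second interval is near that of all genes. With the linear arrays at GD8.5, 10 rose in the first interval, and with 12 arrays 7 rose in the second. Of the R-spondin family of Wnt activators, Rspo1, Rspo2 and Rspo3 were listed and rose in both intervals. The steps were 2.78 ± 0.11 (SE) and 0.92 ± 0.09 for Rspo2, 2.22 and 0.79 for Rspo1, and 0.85 and 1.70 for Rspo3. Of the listed Wnt ligands, Wnt7b rose in the first interval (0.62), and Wnt1, Wnt2b, Wnt3a, Wnt5a and Wnt7a did not pass there. In the second, Wnt3a (0.35) and Wnt5a (0.23) rose and the other ligands did not pass. Secreted Wnt antagonists moved in different directions. Dkk1 fell in both intervals (-0.81 ± 0.07 and -0.96 ± 0.06), as did Frzb (-0.39 and -0.52), while Sfrp2 rose in both (0.85 and 0.73) and Sfrp1 rose in the first and fell in the second (0.24 and -0.22). Dkk3 passed in neither interval (0.13 and 0.10). Bmp4, a ligand of the dorsal midline, fell in the first interval (-0.79 ± 0.14) and rose in the second (0.43). Of 12 genes of the midbrain-hindbrain boundary and hindbrain, 1 rose and 5 fell in the first interval, where 6.78% and 6.74% of all genes did, and the 1 rise is near that share. En2, of the midbrain-hindbrain region, rose (1.09 ± 0.08), while Gbx2, which opposes Otx2 at the boundary (-1.73 ± 0.12), and Egr2, of the hindbrain segments (-2.30 ± 0.09), fell. A further list held 17 measured Hox genes, from Hoxd3, Hoxb4 and Hoxc4 to Hoxc10. Of these, 8 fell and 0 rose in the first interval, where 6.74% and 6.78% of all genes did. Hoxb4 and Hoxc4 were among the 8 that fell. Only 12 of the 17 were above the background at GD8.5 and 8 at GD9.0, so a fall of a dim gene could be missed. Fewer falls were called without GD8.5 replicate 4.

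Markers of other tissues moved beside these results. Over all genes 6.78% rose and 6.74% fell in the first interval, and 14.1% rose and 10.3% fell in the second. The mean log2 level of 13 cardiac muscle markers was 5.56 to 5.67 on the GD8.5 arrays, 2.98 to 3.08 at GD9.0 and 1.45 to 1.56 at GD9.5, and 13 of 13 fell in the first interval. That of 13 endoderm and yolk sac markers went from 5.96 to 5.98, through 3.20 to 3.27, to 1.57 to 1.63, and 12 of 13 fell. At GD9.5, 6 of the 13 cardiac markers (Myh6, Myl2, Myl4, Tnnt2, Ttn and Nppa) and 4 of the 13 endoderm markers (Alb, Apob, Amn and Cubn) were at or under the background. Six3, Otx2 and Hesx1 are also known in surface ectoderm and placodes. Of 14 markers of these tissues, 6 fell and 1 rose in the first interval and 9 fell in the second. The 1 rise is near the 6.78% of all genes. Their mean levels were 4.19 to 4.25, 3.90 to 3.97 and 3.39 to 3.49. Of 9 primitive erythroid markers 6 rose in the first interval, and of 13 markers of head mesenchyme and paraxial mesoderm 2 rose and 8 fell, or 4 without GD8.5 replicate 3. Hesx1 and Otx2 are also known in the anterior visceral endoderm. Of 12 genes listed for that tissue and the prechordal plate, 6 fell and 0 rose in the first interval, led by Sox17 (-1.73 ± 0.12 SE) and Foxa2 (-1.07 ± 0.09). The list is not particular to that tissue, as Sox17 is also counted among the endoderm and yolk sac markers. Hhex was at 3.04, 2.22 and 1.93 at the 3 stages and Dkk1 at 4.81, 4.00 and 3.04. Both fell in both intervals, as did Foxa2, Shisa2 and Fst. Cer1, Lefty1, Gsc, Lhx1, Chrd and Nodal passed in neither interval. Their changes in the first interval were -0.21, -0.13, 0.04, -0.22, -0.03 and 0.09. In the second they were -0.10, 0.03, -0.20, -0.14, -0.11 and -0.05. The highest stage mean among them was 1.81 (Chrd at GD8.5), near the background of 1.42, so a fall could be missed. At or under the background were Gsc and Nodal at GD8.5 and Cer1, Gsc and Lhx1 at GD9.0 and GD9.5, so 10, 9 and 9 of the 12 were above it. The part of these tissues in the falls of Hesx1 and Six3 was not tested.

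Of 12 neural tube markers, 12 were above the background at all stages. The highest stage mean was above it for 13777 of 18193 genes. At GD8.5, 13 of 13 cardiac and 12 of 13 endoderm and yolk sac markers were above it too. Being above the background thus does not tell these tissues apart. The mean level of the neural tube markers was 5.54 to 5.60 at GD8.5, 6.19 to 6.24 at GD9.0 and 6.89 to 6.98 at GD9.5. In the first interval 8 of 12 rose and in the second 11, where 6.78% and 14.1% of all genes did. With the linear arrays at GD8.5, 5 rose in the first interval. With the log2 arrays, the 8 rises of the first interval ran from 0.36 (Cdh2) to 2.40 (Zic1). The 4 markers that did not pass there were Sox1, Sox2, Sox3 and Ncam1 (0.07, 0.16, -0.07 and -0.19). These rose by 0.51, 0.35, 0.68 and 0.74 in the second. In whole dissected tissue, fewer cells of a type and less RNA per cell cannot be told apart. The array's 18S control probe sets read 9.82 to 9.83, 8.65 to 9.05 and 10.2 to 10.4 at the 3 stages, and the actin controls, read as the 3' probe set less the 5' one, gave 0.70 to 0.72, 0.53 to 0.59 and 0.90 to 0.97. Both were lowest at GD9.0, where Otx2 was highest, and the part of neural content and of RNA quality in these results was not tested.

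**Figure D4:**
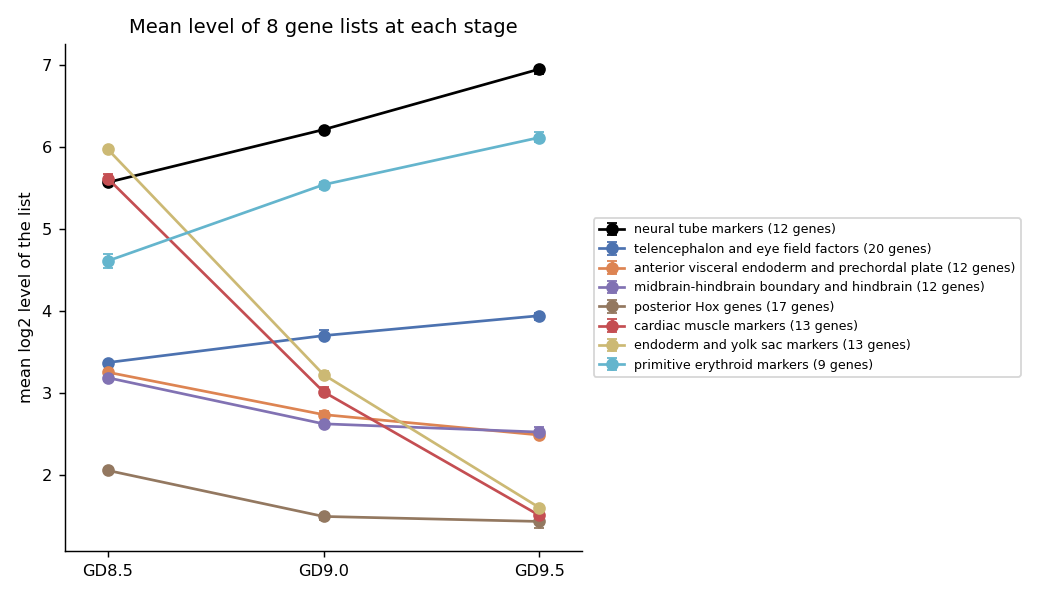
Mean log2 level of 8 gene lists at each stage (points) with the lowest and highest array (bars; 2 arrays at GD8.5 and 4 at each later stage). Cardiac and endoderm lists fall from 5.62 and 5.97 to 1.51 and 1.60, while the neural list rises from 5.57 to 6.95.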

How the data were processed

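Total RNA (100 ng per sample) was labelled with biotin for Affymetrix arrays, per the labels' protocols. RMA, GCRMA and Affymetrix Expression Console 1.2.1 are listed in the submitters' processing notes, without saying which made which values. The deposited values are log2 levels, normalized by the authors, on 10 arrays and linear intensity values on GD8.5 replicates 1 and 2, with medians of 92.2 and 98.3. On the log2 arrays the median was 1.75 to 1.82. The number of arrays limits the precision.

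The 10 log2 arrays entered 1 linear model with a term for every stage (limma 3.58.1, R 4.3.3, 7 residual degrees of freedom, prior 3.86). Each of 18193 genes was represented by its brightest single-gene probe set, and p-values were adjusted over all genes with the Benjamini-Hochberg method. The threshold was an adjusted p of 0.05. Errors are standard errors of the fit. Names came from the platform annotation, in which 34945 probe sets have 1 gene and 932 several. The background is the 95th percentile of 39 olfactory receptor genes, 1.42.

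The members, lists and tests were chosen with earlier results of these data known. From a further list, at most the 2 largest rises and 2 largest falls were named by rule. Sox1, Sox2, Sox3, Ncam1, Cdh2, Hhex, Sfrp1, Sfrp2, Dkk3 and second values of genes so named were added after their values were seen. So were Cer1, Lefty1, Gsc, Lhx1, Chrd, Nodal, Shisa2, Fst and the Wnt ligands of the signal list. Equal replicate numbers are not said to share a litter, so no block was used. Simulated data over 18193 genes had 200 changed genes, drawn from those above the background, with independent noise and the rest flat. The fit recovered 64%, 74% and 78% of genes changed 1.5-fold in the first interval, the second interval and the full day. At 2-fold the fit recovered 94%, 100% and 94%. Over all fold sizes together there were 6, 5 and 12 false calls. In the measured data 13.5% to 28.6% of all genes were called, so these rates may not carry over. Alternatives were averaging all probe sets of a gene, dropping those that match several transcripts, median centring, repeated quantile normalization, a filter and a floor at the background, array weights, a spread that was robust and followed intensity, a replicate block, the 2 stages compared alone, 12 arrays after log2 and quantile normalization, and leaving out each array. The use of GD8.5 replicates 1 and 2 in place of 3 and 4 was added after the data were seen. For it these 2 arrays were put on a log2 scale and quantile normalized with the later arrays. A difference in earlier processing and a difference in level cannot be told apart in that fit.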

Additional observations from a re-analysis of the deposited data

Results flagged for a closer look

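The change of 4 genes differed between the 2 intervals by limma with Benjamini-Hochberg adjustment over all genes, where 11.6% of all genes were called. The difference of the second interval minus the first was 2.44 for Hesx1 (limma adjusted p = 5.5e-07), -0.78 for Otx2 (0.0013), -0.73 for Emx2 (0.013) and -1.76 for Wnt8b (2.0e-06). The 2 intervals share the GD9.0 arrays.

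Of 26 sets of 4 arrays (13 probe sets at GD9.0 and GD9.5), 2 held an array far from the other 3. Otx1 on GD9.0 replicate 1 read 4.89, against 4.75 to 4.76 on the others. Lhx5 on GD9.5 replicate 1 read 2.45, against 2.74 to 2.76. Chance flags about 1 in 20 such sets.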

How the results depend on the processing

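No change of a gene that passed in the 10-array fit turned direction under any alternative run. Over the 9 genes and all alternatives, 195 results of the first interval kept their side of the threshold and 3 calls were lost. In the second interval 189 kept it, 8 calls were lost and 1 was gained, and over the day 189 kept it and 9 calls were lost. The calls lost concern Six3, Rax, Otx1, Otx2, Wnt8b and, between the intervals, Emx2, with the values given above. The number of genes lower in the first interval went from 2 to 1 with probe sets averaged per gene and with GD8.5 replicates 1 and 2 in place of 3 and 4, and the number higher in the second interval from 4 to 2 with 12 arrays. Over probe sets, 1 instead of 2 was lower in the first interval with 12 arrays and with replicates 1 and 2, and in the second interval 3 instead of 5 were higher and 2 instead of 4 lower with 12 arrays. The cause was not tested. Leaving out 1 array at a time gave 5 genes higher and 1 to 2 lower in the first interval, 4 higher and 3 to 4 lower in the second, 4 to 5 higher and 2 to 3 lower over the day, and 1 higher and 2 to 3 lower between the intervals. Over probe sets it gave 5 to 6 higher and 1 to 2 lower, 4 to 5 higher and 3 to 4 lower, and 6 to 7 higher and 2 to 3 lower.

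Over all genes, the first interval had 1233 higher and 1227 lower genes, and 772 and 754 without GD8.5 replicate 3, 630 and 757 without replicate 4, and 4108 and 2882 with the linear arrays in place of these. The second interval had 2561 and 1868, and 1256 and 1038 with 12 arrays. In pairs of the same replicate number, deviations from the stage means correlated at -0.06 to 0.12, and 2 of 10 arrays correlated best with their own number. With 2 arrays at GD8.5, the deviations of 1 mirror those of the other, so these values cannot show pairing there. The numbers were not taken as pairs because the labels do not say that equal numbers share a litter. With the replicate block the fall of Rax over the day was lost (-0.69, limma adjusted p = 0.067), and no other call of the 9 genes changed.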
